A study of Homo sapiens with 12 samples.

Results

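The comparison described here set the 2 SK-LMS-1 libraries of cells that received MK-0752 together with gemcitabine and docetaxel (the combination) against the 4 SK-LMS-1 libraries exposed to DMSO, which together made up 6 of the 12 RNA sequencing libraries of the study. The libraries were taken by their treatment labels, and all 21114 genes that passed a filter on low counts were tested. SK-LMS-1 is an established leiomyosarcoma cell line that the study used as its metastatic uterine leiomyosarcoma (uLMS) model, and SK-UT-1B is the line from a primary tumor. All cells were harvested after 72 h. In the study's methods each agent of the combination was given below its own IC30, a mildly inhibitory concentration set from loss of viability, so the libraries exposed to MK-0752 alone saw more of that drug than those exposed to the combination. The combination libraries are numbered 4-1 and 4-2, and the DMSO libraries are 2-1 and 2-3 (DMSO set 2) and 4-1 and 4-2 (DMSO set 4). No label says that libraries of a group came from separate cultures, so the p-values measure only the spread between these libraries.

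Notch receptors are activated when a ligand on a neighboring cell exposes them to an ADAM protease and then to gamma secretase, which frees a fragment that enters the nucleus and joins RBPJ at target genes such as HES1. MK-0752 inhibits gamma secretase. Gemcitabine is a nucleoside analog that stalls DNA synthesis and inhibits ribonucleotide reductase, and docetaxel stabilizes microtubules and blocks mitosis. In vascular smooth muscle Notch signaling is known for its part in differentiation, with NOTCH3 the typical receptor of that tissue.

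Total counts were between 25585105 and 40709885 in the 6 libraries, and mitochondrial transcripts took 2.33% to 2.52% of them. Genes above 0 counts numbered 16131 to 18898 in the DMSO libraries and 18584 to 20185 in the combination libraries. Between the DMSO libraries of set 4, 845 genes had 0 counts in 1 library and at least 50 in the other, against 430 in DMSO set 2 and 54 in the combination pair. The tested genes at 0 were 3730 to 5826 per DMSO library and 3128 and 3967 in the combination libraries, so the groups overlapped in this count, and its part in the results was not tested. Of 14 smooth muscle markers, 11 were above 3 counts in all 6 libraries, among them the actin-binding genes CALD1 and TAGLN, while DES, the muscle intermediate filament gene, was at 0 in all 6. Their summed level was 1472 to 1635 CPM (TMM-normalised CPM, a library's reads scaled to a common total) after DMSO and 1493 and 1621 CPM after the combination. The 5 leukocyte markers summed to at most 2.23 CPM in any of the 6 libraries, and the 5 genes taken as SK-UT-1B markers, such as the kinesin gene KIF1A, were at 0 in all of them.

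A gene was called when its adjusted p (edgeR quasi-likelihood, Benjamini-Hochberg) was under 0.05 and its log2FC was at least 1 in size. The combination raised 3 genes (0.0142% of those tested) and lowered 1 (0.00474%). HES1, a Notch target that encodes a transcriptional repressor, fell, and IGFBP5, which encodes a secreted binding protein for insulin-like growth factors, rose. The other 2 calls, SHISA3 and KCNH3, were at 0 in every DMSO library and rested on few reads. Both passed the filter on low counts only through their level in SK-UT-1B. Without the adjustment, 482 genes (2.28%) had p under 0.05 with a higher level and 176 (0.834%) with a lower one. Both combination libraries lay above all 4 DMSO libraries for 1689 genes (8.0%) and below all 4 for 710 (3.36%), and the median log2FC over all genes tested was 0.

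**Figure D1:**
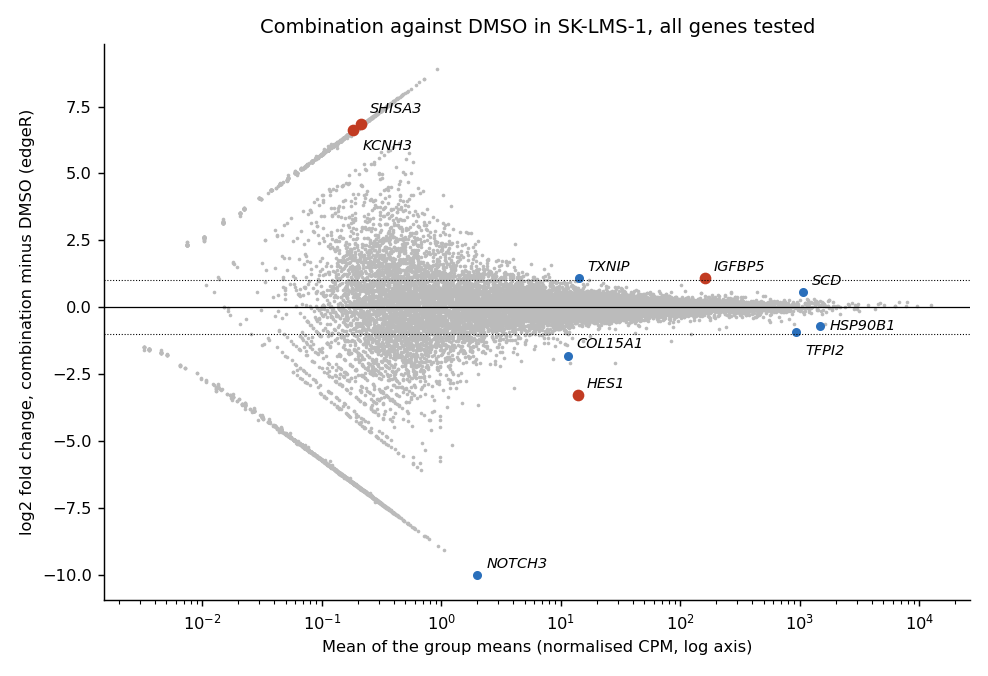
Each point is 1 of the 21114 genes tested, with the mean of its DMSO and combination levels (CPM, log axis) against its edgeR log2 fold change; dotted lines mark a log2FC of 1 in either direction, red marks the 4 called genes and blue other genes named in the text. HES1 and IGFBP5 are the called genes above 10 CPM, SHISA3 and KCNH3 sit among genes at 0 in all DMSO libraries, and NOTCH3 lies lowest with 0 counts in both combination libraries.

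HES1 lies at chr3:194136148-194138732 on the plus strand of hg38, and the 250 bases before its RefSeq start are printed because the gene is the called member of the pathway that MK-0752 targets. Capitals mark TGGGAA, the core of the sequence that RBPJ binds, searched on both strands. It occurred at 2 places, starting 84 and 70 bases before the gene, and 20.8% of the 35116 RefSeq promoters held it in a window of the same length, so the match is a description only. The window is chr3:194135898-194136147 of GRCh38.p14, plus strand.
HES1: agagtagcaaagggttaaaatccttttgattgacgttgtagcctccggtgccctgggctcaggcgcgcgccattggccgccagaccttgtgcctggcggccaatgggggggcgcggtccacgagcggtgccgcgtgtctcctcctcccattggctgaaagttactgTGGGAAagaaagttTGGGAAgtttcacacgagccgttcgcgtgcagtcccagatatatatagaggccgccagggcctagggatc

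HES1 stood at 21.5 and 25.5 CPM in DMSO set 2, at 19.1 and 34.8 CPM in DMSO set 4, and at 3.82 and 1.35 CPM after the combination. Both combination libraries lay far below the lowest DMSO library, and the groups did not overlap. The log2FC was -3.28 (SE 0.48, adjusted p = 0.0149, edgeR), a 9.69-fold lower level (DMSO 25.2 ± 6.88 CPM, SD, n = 4; combination 2.58 ± 1.74 CPM, SD, n = 2). Against DMSO set 4 alone it was -3.37 (adjusted p = 0.0227), and against DMSO set 2 alone -3.17 with an adjusted p of 0.108. In the edgeR fit with a replicate block HES1 had a log2FC of -3.47 and was not called (adjusted p = 0.161). The call was also lost without DMSO 4-2 (log2FC -3.08, adjusted p = 0.0685) and without combination 4-2 (log2FC -2.73, adjusted p = 0.195).

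IGFBP5, at chr2:216672105-216695549 on the minus strand, stood at 129 and 107 CPM in DMSO set 2 and at 91.0 and 82.3 CPM in DMSO set 4. It stood at 226 and 209 CPM after the combination, so both combination libraries exceeded every DMSO library and the groups did not overlap. The log2FC was 1.09 (SE 0.16, adjusted p = 0.0149, edgeR), a 2.12-fold higher level. Against DMSO set 4 the log2FC was 1.33 (adjusted p = 0.00409) and against DMSO set 2 it was 0.88 (adjusted p = 0.214). In the edgeR fit with a replicate block IGFBP5 had a log2FC of 1.33 and was not called (adjusted p = 0.0792). Its call was lost without DMSO 4-2 (adjusted p = 0.0685), without combination 4-1 (adjusted p = 0.269), and without combination 4-2 (adjusted p = 0.0690).

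SHISA3, which encodes a membrane protein that restrains Wnt and FGF receptors, had 0 counts in all 4 DMSO libraries and 23 and 4 counts after the combination. With the DMSO level set to the floor of 3 counts per library, its level in the combination libraries was at least 4.34-fold higher (adjusted p = 0.0344, edgeR). KCNH3, a voltage-gated potassium channel gene that overlaps MCRS1 on the other strand, likewise had 0 counts in all DMSO libraries and 19 and 4 counts after the combination, at least 3.73-fold higher (adjusted p = 0.0405). Both limits rested on combination 4-1: without it they were 1.67-fold for either gene, and without combination 4-2 they were 7.01-fold for SHISA3 and 5.79-fold for KCNH3. Both genes were at 0 in both libraries exposed to MK-0752 alone. In SK-UT-1B they stood at 30.8 and 20.1 CPM after DMSO, and the 5 SK-UT-1B markers were at 0 in the SK-LMS-1 libraries. Neither call remained when protein-coding genes alone were tested or when any DMSO library was left out. When genes needed a mean of 50 counts, or when only SK-LMS-1 libraries were fitted, both genes failed the filter and were not tested. They entered the main test only through their level in SK-UT-1B.

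Of the 72 genes on the Notch lists, 69 passed the filter on low counts. Only HES1 was called among them, 8 members lay higher and 4 lower without overlap, beside 8.0% and 3.36% of all genes tested, and their median log2FC was 0.05 against 0 over all genes tested. Of the 6 ligand genes tested, JAG1, the ligand gene with the most counts, stood at 158 to 185 CPM after DMSO and at 181 and 161 CPM after the combination, so the groups overlapped. DLL4, a ligand known from endothelium, stood at 11.9, 14.7, 23.8, and 12.1 CPM after DMSO and at 5.59 and 6.48 CPM after the combination. DLL4 did not overlap between the groups, with a log2FC of -1.37 (SE 0.67, unadjusted p = 0.0535, adjusted p = 1).

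Among the 4 receptors, NOTCH2 lay at 516 to 585 CPM after DMSO and at 636 and 627 CPM after the combination, without overlap (log2FC 0.16, SE 0.12, unadjusted p = 0.181). NOTCH1 lay at 31.3 to 43.3 CPM after DMSO and at 38.2 and 27.6 CPM after the combination, which overlapped. NOTCH3, with 159, 91, 94, and 165 counts after DMSO, was at 0 in either combination library. With the floor of 3 counts per library, NOTCH3 was at least 37.4-fold lower, yet it was not called (unadjusted p = 0.00110, adjusted p = 0.681, edgeR). DESeq2 did call it, as did edgeR fits of the 6 libraries alone, without the filter on low counts, and with a replicate block (adjusted p = 0.0223). The libraries exposed to MK-0752 alone had 1.15 and 0 CPM of NOTCH3. Because bulk RNA was sequenced, fewer cells expressing a gene and less RNA per cell cannot be told apart.

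None of the enzyme genes that cut the receptors was called. Of the 6 gamma secretase genes, which encode the complex that MK-0752 inhibits, all 6 had groups that overlapped, and all 6 had a log2FC above 0 (0.010 to 1.96, median 0.10). The median was -0.02 against DMSO set 4 and 0.15 against DMSO set 2. NCSTN, the gene of its subunit nicastrin, which overlaps COPA on the other strand, lay at 136 to 173 CPM after DMSO and at 176 and 159 CPM after the combination (log2FC 0.13, SE 0.20). The summed level of the 6 genes was 368 to 417 CPM after DMSO and 387 and 425 CPM after the combination, which also overlapped. The sheddase genes ADAM10 and ADAM17 also overlapped between the groups. Of the 22 genes of the nuclear complex, 5 lay higher without overlap (8.0% of all genes tested), namely RBPJ, its coactivator MAML2, and the corepressors TLE1, TLE4, and CTBP1. None of the 5 passed an unadjusted p of 0.05, and RBPJ stood at 157 to 172 CPM after DMSO and at 194 and 177 CPM after the combination (log2FC 0.19, SE 0.13).

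Of the 9 Notch targets tested, HES1 was called and 7 had a log2FC below 0. NRARP, a feedback inhibitor of Notch, stood at 1.98, 1.74, 3.16, and 1.43 CPM after DMSO and at 0.901 and 1.03 CPM after the combination, without overlap (log2FC -1.10, SE 0.85, unadjusted p = 0.209). HEY1, a repressor related to HES1, stood at 1.81 to 3.55 CPM after DMSO and at 1.92 and 0.903 CPM after the combination, which overlapped (log2FC -0.74, SE 1.12). The list's median log2FC of -0.85 rested on genes near the floor, and only HES1 exceeded 10 CPM in any DMSO library. The median was -1.25 against DMSO set 4, 0 against DMSO set 2, and -0.30 without DMSO 4-1. Of the 20 modulators tested, LFNG, a glycosyltransferase that tunes ligand choice, and DVL3, a Dishevelled scaffold, lay higher without overlap (8.0% of all genes tested), at unadjusted p of 0.287 and 0.323.

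**Figure D2:**
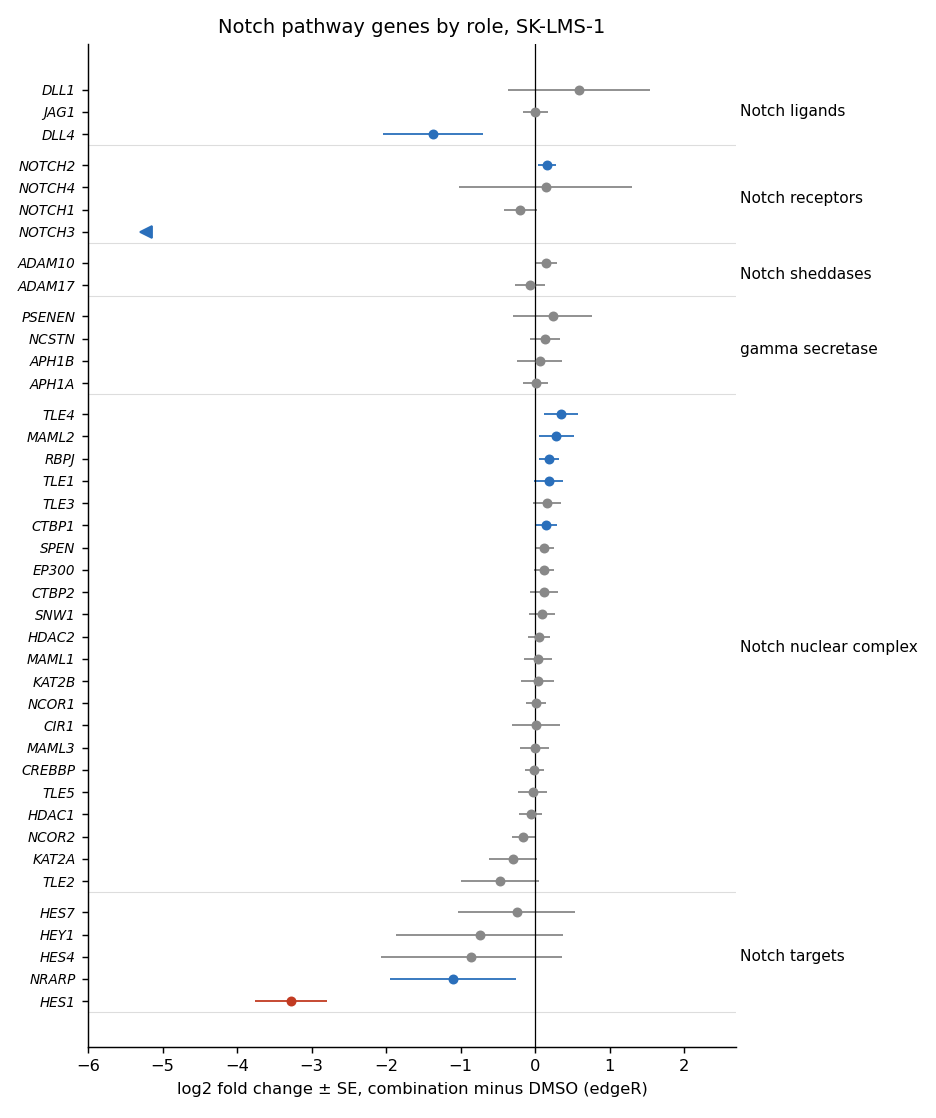
Notch pathway genes with at least 1 CPM in either group, by role, with the log2 fold change of the combination against DMSO and its standard error from edgeR; red marks the called gene, blue genes whose libraries did not overlap between the groups, grey the rest, and the NOTCH3 arrow its bound against the floor of 3 counts. HES1 stands at -3.28, and the nuclear complex genes lie between -0.47 and 0.35. All 6 gamma secretase genes tested, shown or not, range from 0.010 to 1.96 with a median of 0.10.

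Beyond the calls, the genes that ranked highest by p among the lower ones are given here, or further on with the other members of their list. TFPI2, a secreted inhibitor of serine proteases that overlaps GNGT1 on the other strand, stood at 1412, 1144, 1116, and 1172 CPM after DMSO and at 607 and 677 CPM after the combination. Its adjusted p was 0.0436, but its log2FC of -0.91 (SE 0.16) fell short of the threshold. FST, whose product follistatin binds activins, stood at 231 to 309 CPM after DMSO and at 159 and 147 CPM after the combination (log2FC -0.83, SE 0.16, adjusted p = 0.135). The groups did not overlap for either gene.

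COL15A1, a basement membrane collagen gene, stood at 20.5, 15.3, 19.5, and 15.7 CPM after DMSO and at 6.49 and 3.57 CPM after the combination (log2FC -1.81, SE 0.36, adjusted p = 0.135). GNAO1, which encodes a G protein alpha subunit, stood at 4.64 to 10.5 CPM after DMSO and at 1.92 and 1.72 CPM after the combination (log2FC -2.03, SE 0.42, adjusted p = 0.172), and it was called against DMSO set 4. Both genes lay lower in both combination libraries than in any DMSO library. OLFM2 (log2FC -2.09, SE 0.50), ETS2, a transcription factor gene (log2FC -0.99, SE 0.24), and SOD3, the extracellular superoxide dismutase gene (log2FC -0.75, SE 0.19), completed this group without overlap and with adjusted p of 0.471 to 0.613. When 1 library was left out, the log2FC of OLFM2 was -2.97 to -1.54. DESeq2 called COL15A1 (adjusted p = 0.00143), GNAO1 (0.00343), OLFM2 (0.0145), and ETS2 (0.00518). Between the 2 DMSO sets, which received no drug, DESeq2 also called 20 genes higher and 44 lower in set 4. In edgeR the fit without the filter on low counts called COL15A1, GNAO1, and OLFM2, the fit of the 8 SK-LMS-1 libraries COL15A1, OLFM2, and ETS2, and the fit of the 6 libraries alone OLFM2.

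Beyond the 3 higher calls, edgeR did not call the higher genes that ranked next by p. SCD, which encodes the desaturase that makes monounsaturated fatty acids, stood at 826, 909, 828, and 866 CPM after DMSO and at 1260 and 1264 CPM after the combination (log2FC 0.56, SE 0.10, adjusted p = 0.0805). TXNIP, an arrestin that limits glucose uptake, stood at 5.68 to 11.1 CPM after DMSO and at 16.9 and 21.4 CPM after the combination (log2FC 1.08, SE 0.23, adjusted p = 0.454). MMP2, a gelatinase gene, stood at 400 to 440 CPM after DMSO and at 561 and 559 CPM after the combination (log2FC 0.42, SE 0.12, adjusted p = 0.893). The groups did not overlap for any of the 3. TXNIP was called by DESeq2 (adjusted p = 0.0148), without the filter on low counts (adjusted p = 5.37e-07), and among the 8 SK-LMS-1 libraries (adjusted p = 0.0345).

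LXN, a carboxypeptidase inhibitor gene that overlaps GFM1 on the other strand (log2FC 0.83, SE 0.22), the integrin gene ITGB8 (log2FC 0.54, SE 0.17), and the efflux transporter gene ABCC3 (log2FC 0.76, SE 0.24) were higher without overlap and not called. So were TXN2, the mitochondrial thioredoxin gene (log2FC 0.75, SE 0.24), SLC14A1, a urea transporter gene (log2FC 0.42, SE 0.14), GABARAP, which acts in autophagy (log2FC 0.99, SE 0.33), and the zinc finger gene ZNF75A (log2FC 1.61, SE 0.54). ABCC3 stood at 23.7 to 29.6 CPM after DMSO and at 44.7 and 43.3 CPM after the combination.

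**Figure D3:**
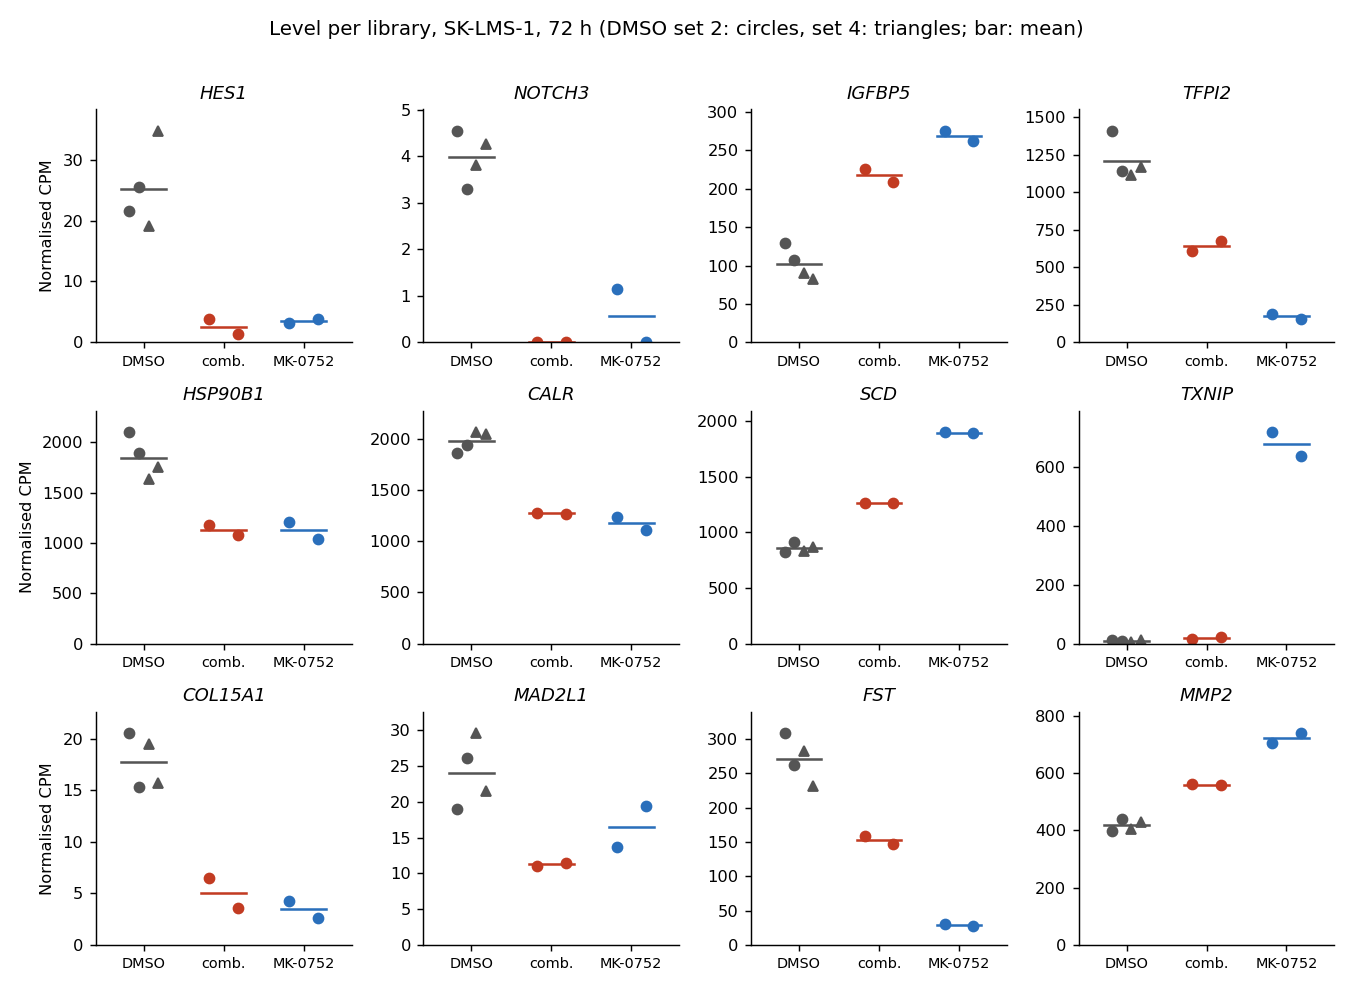
Level (CPM) of 12 genes in each SK-LMS-1 library after DMSO (grey, circles for set 2 and triangles for set 4), the combination (red), and MK-0752 alone (blue), with bars for the group means and each vertical axis starting at 0. In every panel the 2 combination libraries lie outside the range of the 4 DMSO libraries, and for TXNIP the libraries exposed to MK-0752 alone reach 718 and 638 CPM.

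Genes of mitosis lay mostly lower after the combination, though edgeR called none of the 40 tested. Of the 40, 37 had a log2FC below 0, 8 had an unadjusted p under 0.05, and 18 had both combination libraries below all 4 DMSO libraries, beside 0.834% and 3.36% of all genes tested. The median log2FC was -0.32 against 0 over all genes tested. It was -0.29 against DMSO set 4 and -0.36 against DMSO set 2. MAD2L1, a gene of the spindle checkpoint, stood at 18.9, 26.1, 29.6, and 21.5 CPM after DMSO and at 11.1 and 11.5 CPM after the combination (log2FC -1.09, SE 0.25, adjusted p = 0.348). MAD2L1 was called by DESeq2 (adjusted p = 0.0148) and in the fit without the filter on low counts (adjusted p = 0.00753). CCNB1, the gene of cyclin B1, stood at 94.0 to 101 CPM and then at 61.4 and 67.2 CPM (log2FC -0.59, SE 0.19, unadjusted p = 0.00503). The proliferation marker MKI67 stood at 350, 382, 397, and 355 CPM after DMSO and at 311 and 259 CPM after the combination (log2FC -0.38, SE 0.13, unadjusted p = 0.00681). The kinetochore gene CENPF (log2FC -0.52), PBK (log2FC -0.57), the topoisomerase gene TOP2A (log2FC -0.34), the checkpoint kinase gene TTK (log2FC -0.44), and the kinesin gene KIF4A (log2FC -0.35) made up the 8.

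None of the genes of DNA synthesis, the process that gemcitabine stalls, was called. Of 49 replication genes, 32 had a log2FC below 0, and 3 lay lower and 1 higher without overlap, beside 3.36% and 8.0% of all genes tested, with a median log2FC of -0.11 (-0.09 against DMSO set 4 and -0.04 against DMSO set 2). Of 18 genes that handle gemcitabine, RRM2 and SLC29A2 had an unadjusted p under 0.05 and a log2FC below 0, as did 0.834% of all genes tested. RRM2, a subunit of ribonucleotide reductase, stood at 198 to 217 CPM after DMSO and at 150 and 146 CPM after the combination (log2FC -0.48, SE 0.15, unadjusted p = 0.00452). SLC29A2, a nucleoside transporter gene, had 0, 52, 57, and 2 counts after DMSO and 0 in either combination library, so the groups overlapped (unadjusted p = 0.0337, adjusted p = 1), and it was called in the fit without the filter on low counts (adjusted p = 0.0126). Of 24 tubulin and microtubule genes, the kinesin gene KIF2C had an unadjusted p of 0.0164 (log2FC -0.61, SE 0.23). Of 30 p53 targets, 6 lay higher and 1 lower without overlap, beside 8.0% and 3.36% of all genes tested, and CDKN1A, the cell cycle inhibitor p21, stood at 50.2 to 55.7 CPM after DMSO and at 58.2 and 71.2 CPM after the combination (unadjusted p = 0.173).

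Genes of sterol and fatty acid synthesis lay mostly higher, and none of the 28 was called. Of the 28, 25 had a log2FC above 0, 8 had an unadjusted p under 0.05, and 17 had both combination libraries above all DMSO libraries, beside 2.28% and 8.0% of all genes tested, with a median log2FC of 0.31. INSIG1, which encodes a sterol sensor of the endoplasmic reticulum, stood at 53, 72.1, 59.0, and 87.0 CPM after DMSO and at 101 and 97.7 CPM after the combination (log2FC 0.55, SE 0.19, unadjusted p = 0.00770). HMGCS1, an early enzyme of sterol synthesis, stood at 15.3 to 22.1 CPM after DMSO and at 33.4 and 25.1 CPM after the combination (log2FC 0.59, SE 0.24, unadjusted p = 0.0234). For both genes the combination libraries lay above every DMSO library. SCD, SQLE (log2FC 0.43), MSMO1 (log2FC 0.64), and SREBF2, the transcription factor of sterol synthesis (log2FC 0.34), were also among those with an unadjusted p under 0.05. The letters TCACNCCAC, a form of the sterol regulatory element, stood before 1 of the 21 genes with a RefSeq promoter and in 0.883% of all promoters.

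Chaperones of the endoplasmic reticulum lay lower, a list that was added after HSP90B1 and CALR had been seen among the top genes, so its count describes these libraries and supports nothing further. Of the 20 genes, 19 had a log2FC below 0, 9 had an unadjusted p under 0.05, and 15 lay lower without overlap, beside 0.834% and 3.36% of all genes tested, with a median log2FC of -0.33. HSP90B1, the endoplasmic reticulum form of HSP90, overlaps UQCC6 on the other strand and stood at 2104, 1898, 1639, and 1751 CPM after DMSO and at 1178 and 1076 CPM after the combination (log2FC -0.71, SE 0.13, adjusted p = 0.0805). CALR, which encodes the lectin chaperone calreticulin, stood at 1866, 1946, 2073, and 2055 CPM after DMSO and at 1282 and 1268 CPM after the combination (log2FC -0.64, SE 0.13, adjusted p = 0.135). HSPA5, the gene of the chaperone BiP, stood at 879 to 1004 CPM after DMSO and at 671 and 719 CPM after the combination (log2FC -0.44, SE 0.17, unadjusted p = 0.0202). The groups did not overlap for these 3 genes.

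The windows before these 3 genes are printed because chaperone genes of this compartment share the endoplasmic reticulum stress element, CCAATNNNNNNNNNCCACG, which begins with a CCAAT box. Capitals mark it on either strand in the 250 bases before each RefSeq start on GRCh38.p14. The windows are chr12:103930160-103930409 (plus strand) for HSP90B1, chr19:12938359-12938608 (plus strand) for CALR, and chr9:125241344-125241593 (minus strand) for HSPA5. The element occurred 2 times in HSP90B1 and 1 time each in CALR and HSPA5, in 7 of the 19 listed genes with a promoter, and in 0.074% of all 35116 promoters.
HSP90B1: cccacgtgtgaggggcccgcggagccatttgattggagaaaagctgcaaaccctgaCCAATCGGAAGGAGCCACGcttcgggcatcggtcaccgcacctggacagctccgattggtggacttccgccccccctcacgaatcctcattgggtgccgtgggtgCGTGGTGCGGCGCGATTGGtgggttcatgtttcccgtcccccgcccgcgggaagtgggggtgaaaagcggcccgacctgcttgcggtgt
CALR: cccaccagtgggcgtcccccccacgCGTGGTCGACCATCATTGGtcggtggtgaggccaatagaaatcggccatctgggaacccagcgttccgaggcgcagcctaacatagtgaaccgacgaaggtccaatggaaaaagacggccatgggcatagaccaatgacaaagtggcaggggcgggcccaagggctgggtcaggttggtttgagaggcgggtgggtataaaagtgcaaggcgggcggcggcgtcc
HSPA5: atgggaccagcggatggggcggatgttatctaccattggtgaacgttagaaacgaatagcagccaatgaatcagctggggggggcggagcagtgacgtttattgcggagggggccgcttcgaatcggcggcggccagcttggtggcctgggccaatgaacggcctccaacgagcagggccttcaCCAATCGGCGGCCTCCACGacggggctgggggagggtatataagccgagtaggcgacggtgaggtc

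**Figure D4:**
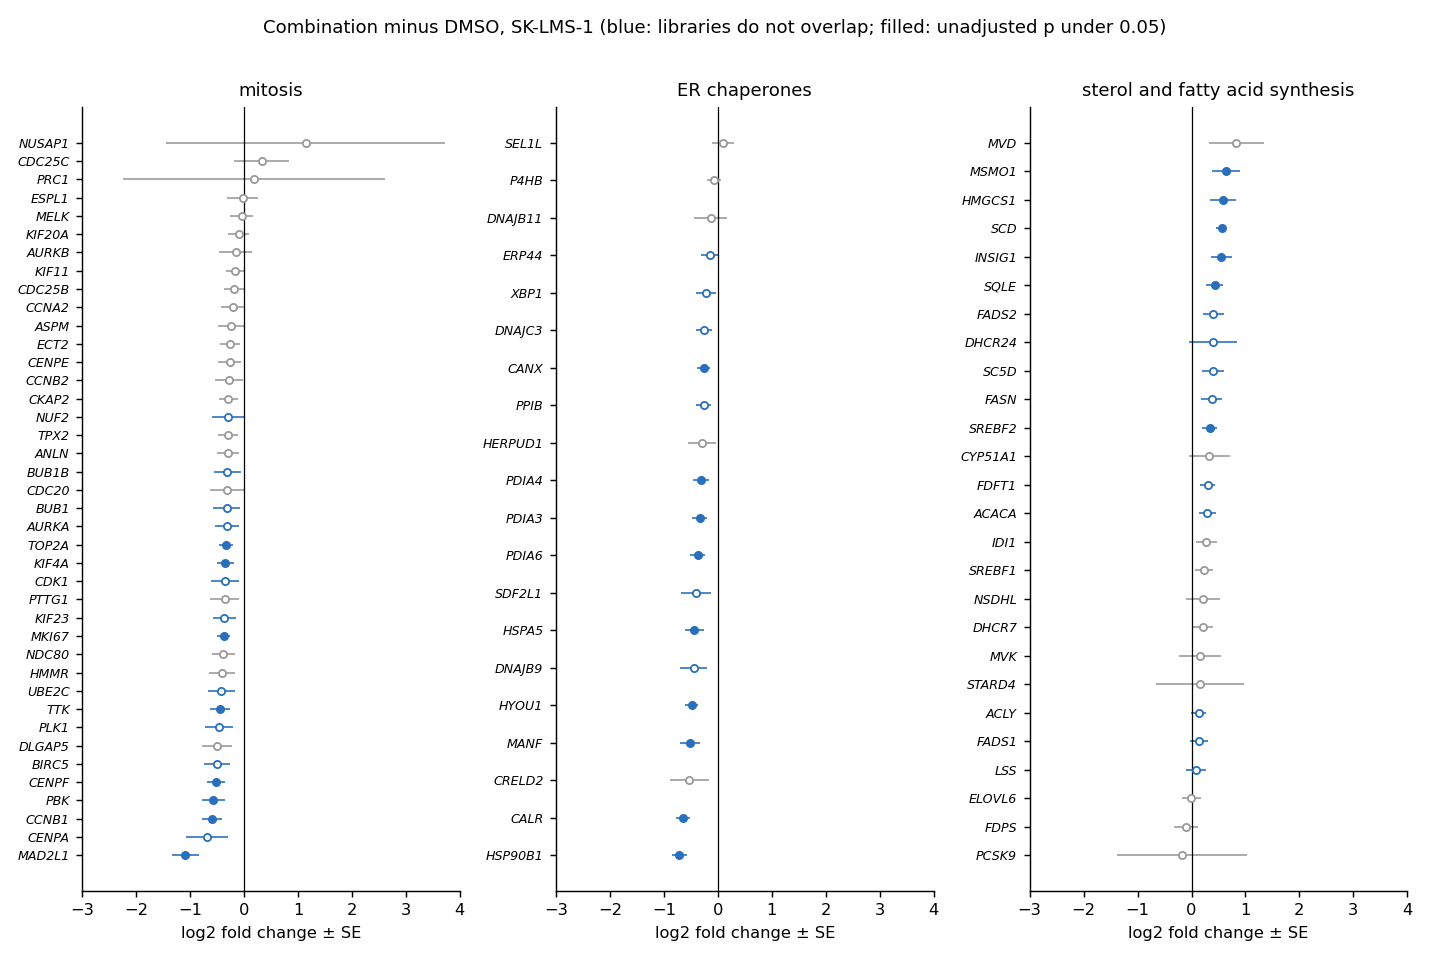
Log2 fold change of the combination against DMSO with its standard error (edgeR) for tested genes of 3 lists; blue marks genes whose libraries did not overlap between the groups, filled points an unadjusted p under 0.05. Nearly all mitosis and chaperone genes lie left of 0 and most sterol and fatty acid synthesis genes right of it, while NUSAP1 and PRC1 have wide errors.

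Of 39 collagen chain genes tested, 10 lay lower without overlap and none lay higher, beside 3.36% and 8.0% of all genes tested, and the median log2FC was -0.09. Without DMSO 2-1 and DMSO 4-1, 11 lay lower and 6 higher, beside 2864 and 3789 of all genes tested. COL5A3, a chain of type V collagen, stood at 3.32, 5.94, 9.01, and 10.6 CPM after DMSO and at 0.721 and 1.07 CPM after the combination (log2FC -3.01, SE 0.98, unadjusted p = 0.00595), and DESeq2 called it (adjusted p = 0.0131). COL6A1, a chain of type VI collagen, stood at 726 to 1025 CPM after DMSO and at 520 and 632 CPM after the combination (log2FC -0.51, SE 0.19, unadjusted p = 0.0128). COL3A1 had a log2FC of -0.44 (SE 0.15, unadjusted p = 0.00924). Among the matrix proteases, MMP1 stood at 1040 to 1110 CPM after DMSO and at 698 and 710 CPM after the combination (log2FC -0.61, SE 0.29, unadjusted p = 0.0663). The spliceosome, the respiratory chain, the cytosolic ribosomal proteins, the interferon-stimulated genes, and the ATF4 targets had medians of -0.04 to 0.05, with no gene called in any of them. Of 103 spliceosome genes, 63 had a log2FC below 0 and 40 above 0. Without overlap, 10 of them lay lower and 5 higher, beside 3.36% and 8.0% of all genes tested.

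By the median of each list in each library, both combination libraries lay outside the 4 DMSO libraries for 11 of 37 lists, 6 higher and 5 lower. Among single genes tested, 8.0% lay higher and 3.36% lower without overlap. They lay lower for the chaperones, mitosis, collagens, matrix proteases, and Notch targets, and higher for p53 targets, sterol and fatty acid synthesis, drug efflux, Notch modulators, G1 regulators, and G protein alpha subunits. For mitosis the medians were -0.26 and -0.40 in the combination libraries and -0.10 to 0.06 in the DMSO libraries, on a log2 scale against the DMSO mean with 0.5 CPM added. For sterol and fatty acid synthesis they were 0.32 and 0.33 against -0.03 to 0.04. Other gaps were narrow, such as 0.072 and 0.077 for G1 regulators against at most 0.059 after DMSO. For Notch targets the medians were -0.51 and -0.62 against -0.43 to 0.51. The lists were described with earlier results of these data known, so these separations carry no test.

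**Figure D5:**
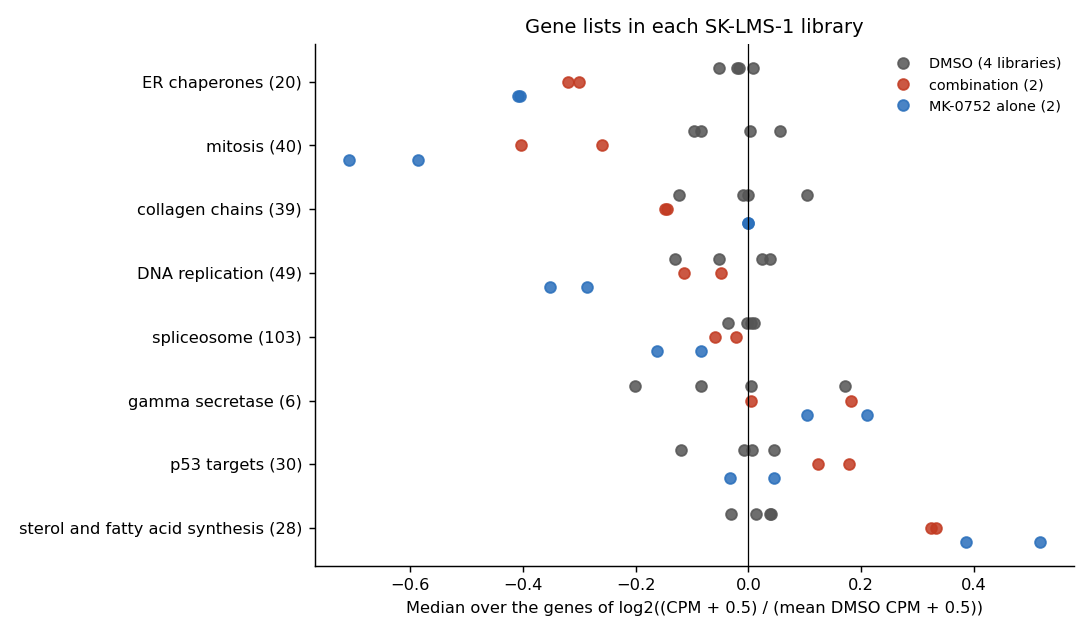
Median over the genes of each list (number of genes in brackets) of log2 of each library's CPM over the mean DMSO CPM, with 0.5 added to both, for the SK-LMS-1 libraries after DMSO (grey), the combination (red), and MK-0752 alone (blue). The combination points for chaperones and mitosis lie left of all DMSO points and those for sterol and fatty acid synthesis right of them, with the MK-0752 points further out.

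DMSO set 4 alone was the control that shares its first library number with the combination. Against it, 3 genes were called higher (0.0142%) and 2 lower (0.00947%), namely IGFBP5, MAP2K6, and FAXC higher and HES1 and GNAO1 lower. MAP2K6, a kinase of the p38 pathway, and FAXC were at 0 throughout DMSO set 4 but had 42 and 18, and 67 and 43, counts in DMSO set 2. For both genes the combination counts, 51 and 13 for MAP2K6 and 48 and 71 for FAXC, overlapped DMSO set 2 in normalised level. Between DMSO set 4 and DMSO set 2 edgeR called 0 genes (0%), with 1197 at an unadjusted p under 0.05, while DESeq2 called 20 higher and 44 lower in set 4.

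MK-0752 alone, at its own IC30, was compared with the combination, which held less of it and added the chemotherapeutics. The MK-0752 libraries are numbered 2-2 and 2-3 and the combination libraries 4-1 and 4-2, so the first library number and the treatment cannot be told apart here. edgeR called 11 genes higher after the combination (0.0521%) and 1 lower (0.00474%). TXNIP was the gene lower after the combination, at 16.9 and 21.4 CPM against 718 and 638 CPM (log2FC -5.15, SE 0.32, adjusted p = 1.72e-06). FST stood at 159 and 147 CPM after the combination and at 30.1 and 28.1 CPM after MK-0752 alone (log2FC 2.39, SE 0.19, adjusted p = 1.72e-06). TFPI2 stood at 607 and 677 CPM against 188 and 157 CPM (log2FC 1.90, SE 0.18, adjusted p = 8.25e-06). KISS1, the kisspeptin gene, and TEDC2 were at 0 counts in both MK-0752 libraries, and DMBT1, CEMIP, TRPA1, HAS2, ARNT2, RGS2, and LIF were the other calls.

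HES1 did not differ detectably between these treatments, at 3.82 and 1.35 CPM after the combination and 3.14 and 3.80 CPM after MK-0752 alone (log2FC -0.42, SE 0.48, adjusted p = 1). For IGFBP5 the log2FC between them was -0.31 (SE 0.19, adjusted p = 1). SCD, HSP90B1, and CALR were likewise not called between them, with SCD at 1260 and 1264 CPM against 1902 and 1887 CPM (adjusted p = 0.104). Doses of MK-0752 differed, so these values are set side by side and say nothing of equal effect.

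The effect of the combination was also set against that in SK-UT-1B, where the interaction was called for 18 genes (0.0853%) in the direction of higher in SK-LMS-1 and 34 (0.161%) in the direction of lower. Leaving out 1 library gave 10 to 229 and 16 to 266 genes, the most without SK-UT-1B combination 3-3. In SK-UT-1B the combination libraries are 3-1 and 3-3 and the DMSO libraries 4-1 and 4-2, so there too the first number and the treatment cannot be told apart. COL15A1 went from a mean of 17.8 CPM to 5.03 CPM in SK-LMS-1 and from 19.4 to 69.8 CPM in SK-UT-1B (difference of log2FC -3.66, SE 0.53, adjusted p = 0.00132). TFPI2 went from 1211 to 642 CPM in SK-LMS-1 and from 20.9 to 27.3 CPM in SK-UT-1B (difference -1.29, SE 0.24, adjusted p = 0.0175). For HES1 the log2FC was -3.28 in SK-LMS-1 and -1.70 in SK-UT-1B, and the difference of -1.58 (SE 0.64) was not called (adjusted p = 0.608). For IGFBP5 the difference was 1.06 (SE 0.25, adjusted p = 0.125).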

How the data were processed

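RNA of both lines (SK-LMS-1, SK-UT-1B) was sequenced after 72 h. The authors trimmed reads with Trim Galore 0.3.7, aligned them to hg38 with STAR 2.7.9a, and deposited an unnormalized count for each gene and library; tool versions are from the submitters' processing notes, which also name DESeq2 1.42.0. The gene annotation, the strand setting of counting, and any duplicate removal are not given in the sources used here. All 12 columns were mapped to samples. Names, positions, and overlaps came from GENCODE v44 on hg38 (60507 of 60649 genes matched), and promoters from RefSeq (GRCh38.p14).

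Counts of all 12 libraries were fitted in 5 groups of line and treatment with edgeR 4.0.16 (R 4.3.3; TMM, filterByExpr, robust quasi-likelihood), and in 6 groups with the DMSO sets apart. CPM were scaled by TMM library size. The procedure was tested on simulated data. Named genes were all calls, the 12 higher and 12 lower genes of smallest p whose groups did not overlap and whose higher group averaged 100 counts or more, Notch list members, MKI67, and list members with unadjusted p under 0.05 and no overlap, or else those with the highest level. A few genes that this rule or the lists hold are not reported here. MMP1, CDKN1A, and the motifs were chosen after their values were seen. The members and lists were chosen with earlier results of these data known. Alternatives were DESeq2 1.42.0, its size factors in edgeR, other filters, other sets of libraries, leaving out single libraries, a replicate block, other thresholds, protein-coding genes alone, and plain library totals for CPM. Leaving out DMSO 2-1 and 4-1 together, and other scalings of the overlap counts, were chosen after seeing the data. Library sizes limit counting error only, and a floor of 3 counts per library was used where a group had 0.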

Additional observations from a re-analysis of the deposited data

Results flagged for a closer look

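The combination effect differed between the lines (interaction test, edgeR) for COL15A1, lower in SK-LMS-1 and higher in SK-UT-1B (difference of log2FC -3.66, adjusted p = 0.00132), and for TFPI2 (-1.29, adjusted p = 0.0175). For SOD3 the difference was -4.20 (adjusted p = 0.000138), with a mean of 0.0744 CPM after DMSO in SK-UT-1B, near the floor, and 0.859 CPM after the combination. For SHISA3 it was 6.78 (adjusted p = 0.0243), a fitted value against 0 counts in SK-LMS-1 DMSO that is no bound. For TLE4 it was 9.57 (adjusted p = 1.06e-05), with 0 in both SK-UT-1B combination libraries and a mean of 2.34 CPM in the SK-UT-1B DMSO libraries, so this value is no bound either.

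In 4 of 68 values tested, 1 of the 4 DMSO libraries stood apart by Dixon's test, which chance gives in about 1 of 20. These were NOTCH2 at 516 CPM (lowest), MSMO1 at 17.7 CPM (lowest), and PDIA6 at 648 CPM (highest), all in DMSO 4-1, and TTK at 57.2 CPM (highest) in DMSO 2-1. In all 4 the combination libraries lay outside the DMSO range, on the side away from that library. MSMO1, PDIA6, and TTK were tested because their groups did not overlap, so for them a place outside that range was fixed by the choice.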

How the results depend on the processing

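For the combination against DMSO, with 3 genes higher and 1 lower, DESeq2 called 16 higher and 12 lower, and fitting genes with no filter beyond 1 count called 45 and 31. At 0 in every DMSO library were 12 of the 28 DESeq2 calls and 31 of the 76 calls without the filter. Requiring a mean of 50 counts, which SHISA3 and KCNH3 cannot meet, left 1 higher, as did protein-coding genes alone. The 6 libraries alone and the 8 SK-LMS-1 libraries each gave 4 lower, DMSO set 4 as control 2 lower, and no fold threshold 2 lower. DMSO set 2 as control gave 0 higher and 0 lower. Leaving out 1 library gave 2 to 8 higher and 0 to 1 lower, with 8 higher without combination 4-2 and 5 without DMSO 2-3, and 0 lower without combination 4-2 or DMSO 4-2. Without DMSO 2-1 and DMSO 4-1 together, 3 were higher and 1 lower, of which HES1 and IGFBP5 were shared with the main calls. HES1 kept its direction in all 18 alternatives (log2FC -4.22 to -2.73) and IGFBP5 in all 18 (0.88 to 1.33). Deviations of 4-1 minus 4-2 in DMSO and in the combination had a correlation of -0.039 over 9578 genes. With 1 such difference per group, this cannot show whether the library numbers pair the samples. The fit with the replicate block called 0 higher and 1 lower, NOTCH3. NOTCH1, not called, had a log2FC of -0.45 to 0.017 when 1 library was left out, the highest without combination 4-2. Mitosis genes without overlap numbered 18 to 19 under the scalings and 31 without DMSO 2-1 and DMSO 4-1, and sterol and fatty acid synthesis genes 13 to 17 and 22, collagens lower 10 and 11, and collagens higher 0 and 6, beside 1460 to 1689 higher and 710 to 890 lower of all genes under the scalings and 3789 and 2864 without those libraries.

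Against DMSO set 4, DESeq2 called 43 higher and 11 lower, a mean of 50 counts 1 and 0, and leaving out 1 library 0 to 21 and 0 to 8, with 21 and 8 without DMSO 4-2. Between DMSO sets, DESeq2 called 20 and 44, and leaving out 1 library 0 to 13 higher and 0 to 26 lower. Against MK-0752 alone, DESeq2 called 44 and 7, a mean of 50 counts 7 higher, and leaving out 1 library 4 to 8 higher and 1 to 2 lower. For the line difference, DESeq2 called 83 and 137, and leaving out 1 library gave 10 to 229 higher and 16 to 266 lower, the most without SK-UT-1B combination 3-3. Causes were not tested.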
